A study of Mus musculus with 8 samples.

Results

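The set described here comprises 37 genes for plasma proteins made by hepatocytes, 20 of blood coagulation and fibrinolysis and 17 of complement, taken by gene symbol from an RNA sequencing table of 56748 genes. All 37 were found in the table, and all 37 had enough counts to be tested. RNA was sequenced from mouse primary hepatocytes of 4 groups with 2 libraries each. Every mouse was C57BL/6J and carried floxed Yap and Taz alleles (Yapfl/fl;Tazfl/fl), and the groups differed in the virus given and in the hydrogel. Mice called Yap/TazHepKO, here the knockout, received AAV8-TBG-Cre, in which the hepatocyte promoter TBG drives Cre, and the mice called wild type received AAV8-TBG-Null. The mice were 7 to 8 weeks old at injection and hepatocytes were isolated 10 days later. The cells were kept for 24 h on collagen-coated hydrogels of 1 kPa (soft) or 20 kPa (stiff). The series design gives the mice as female and the culture protocol as male, and in all 8 libraries Xist had 4818 to 8443 counts while the Y-linked genes Ddx3y, Eif2s3y, Kdm5d and Uty had 0. The labels do not say whether the 2 libraries of a group came from separate mice, so the p-values measure the spread between these libraries, which may be technical.

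Coagulation is a chain of proteases that circulate as inactive zymogens. It ends in thrombin, which cuts fibrinogen into the fibrin of a clot, and plasmin later dissolves that clot. Complement is a second set of plasma proteases and binding proteins, started by antibody, by lectins that bind sugars on microbes, or spontaneously. These routes meet at C3 and lead to the terminal proteins that assemble a pore in the target membrane. Hepatocytes are the main source of both systems in plasma, and YAP and TAZ are transcriptional coactivators that bind TEAD factors and are known to respond to the stiffness of the surroundings.

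Library totals were between 18324083 and 26442310 counts. Yap1 had 1720 to 2913 counts in the 4 wild-type libraries and 606 to 747 in the 4 knockout libraries, and Wwtr1, which encodes TAZ, had 748 to 1325 and 277 to 410. Both were lower in the knockout on either hydrogel, and reads from both remained. The 7 hepatocyte markers found in the table summed to 92330 to 95540 CPM, the count scaled to the size of the library, in the wild-type and 65180 to 65780 in the knockout libraries, and none was at 0. Most of that sum was Alb, at a mean of 81923 CPM in wild-type soft, and the sum does not show the other markers. On the stiff hydrogel in wild type 5 of the 7 had a log2 fold change below 0 (median -0.297), and Hnf4a, a hepatocyte transcription factor, and Ahsg, fetuin-A, were called lower at -0.98 and -0.76, beside 9.26% of all genes tested by the rule given below. In the knockout 0 of the 7 were called between stiff and soft, beside 0.0210% of all genes tested, with a median of -0.00787. Against wild type on stiff, Hnf4a (1.17) and Ahsg (0.89) were called higher in the knockout, and Alb (-0.66) and Cps1 (-0.68) lower. That was 2 of the 7 each way, beside 13.7% of all genes higher and 15.0% lower. On soft 0 were higher and 2 lower, Cps1 at -0.85 and Alb at -0.58, beside 2.02% and 4.65%. Markers of other liver cells moved with the groups. The 10 Kupffer cell and macrophage markers summed to 76.5 to 79.3 CPM in wild-type soft, 53.9 to 58.8 in wild-type stiff and 109 to 112 in the knockout libraries, and the 9 endothelial markers to 63.0 to 69.2, 50.1 to 51.2 and 82.0 to 87.3. The 10 stellate and fibroblast markers summed to 37.8 to 38.2, 26.5 to 27.5 and 53.7 to 58.1 CPM, and the 7 cholangiocyte markers to 571 to 602, 622 to 626 and 341 to 367. The cholangiocyte marker Cftr was at 0 counts in all 8 libraries, which allows up to 0.164 CPM in the shallowest of them, and the stellate marker Lrat had 0 to 4. In bulk RNA fewer cells of a type and less RNA per cell cannot be told apart, and the part of these markers in the differences below was not tested.

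The 37 genes spanned a wide range of levels. Levels are given as TMM-normalized CPM, and levels of different genes are compared only after division by the gene length in kilobases (CPM per kb). In wild-type soft the level was highest for C3, the protein on which all complement routes converge, at 957 CPM per kb. The fibrinogen genes followed, with Fgb at 568 and Fga at 551 CPM per kb, then Kng1, which encodes kininogen, at 499. Lowest were C6, a terminal complement component, at 0.735 CPM per kb, and Klkb1, plasma prekallikrein, at 2.98. C6 had 21 to 65 counts in a library, so its values are the least precise of the set. The median gene was at 139 CPM per kb among the coagulation genes and at 28.2 among the complement genes. Fgb was the highest coagulation gene in every group but wild-type stiff, where Kng1 led at 470.5 CPM per kb.

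Together the 20 coagulation genes made up 12590 and 12350 CPM of the wild-type soft libraries, 10040 and 9943 of wild-type stiff, 9890 and 9736 of knockout soft, and 9642 and 9860 of knockout stiff. The wild-type soft libraries were thus the highest, and the other 3 groups lay close to each other. The 17 complement genes summed to 8388 and 8257 CPM in wild-type soft, 7503 and 7425 in wild-type stiff, 6720 and 6691 in knockout soft, and 6913 and 6930 in knockout stiff. Here too wild-type soft was highest, wild-type stiff was next, and the knockout libraries were lowest. These sums were carried by the few most abundant genes, and C3 alone accounted for 4970.0 and 4874 CPM in wild-type soft.

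**Figure D1:**
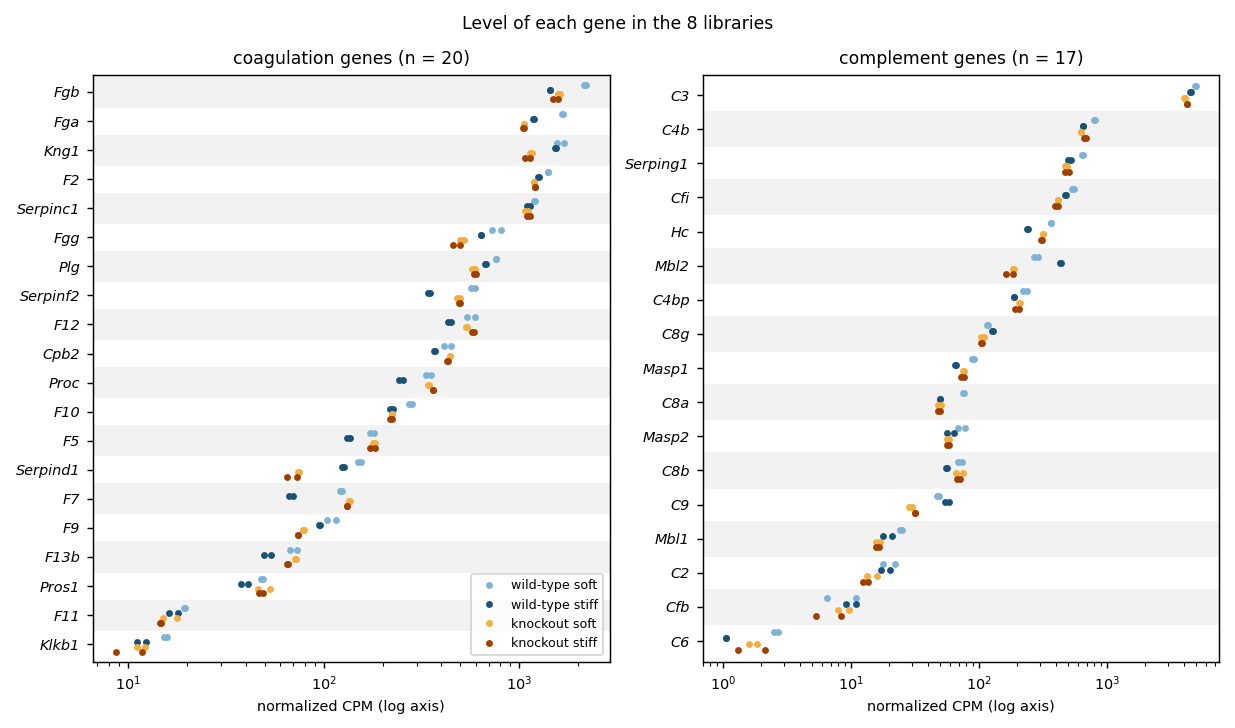
Normalized CPM of each coagulation gene (left) and complement gene (right) on a log axis, 1 point per library and 4 colours for the groups. The points of a gene lie close together against the spread between genes, which runs from C6 near 1 CPM to C3 at up to 4970.0 CPM.

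The first comparison asked how the wild-type hepatocytes differed between the stiff and the soft hydrogel. All 20 coagulation genes had a lower mean on the stiff hydrogel, with a median log2 fold change of -0.304 against -0.00874 over all 14279 genes tested. A gene was called changed when the quasi-likelihood test of edgeR gave an adjusted p (Benjamini-Hochberg) under 0.05 and its log2 fold change was over 0.5 in size. By that rule 3 of the 20 fell (F7, Serpinf2 and Fgb) and 0 rose, beside 19.3% of all genes tested, of which 10.0% rose and 9.26% fell. Without a minimum fold change, 18 of the 20 were lower and 0 higher at an adjusted p under 0.05, beside 20.0% of all genes lower and 21.1% higher. The libraries of the 2 groups did not overlap for 20 of the 20 genes, which held for 68.9% of all genes.

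**Figure D2:**
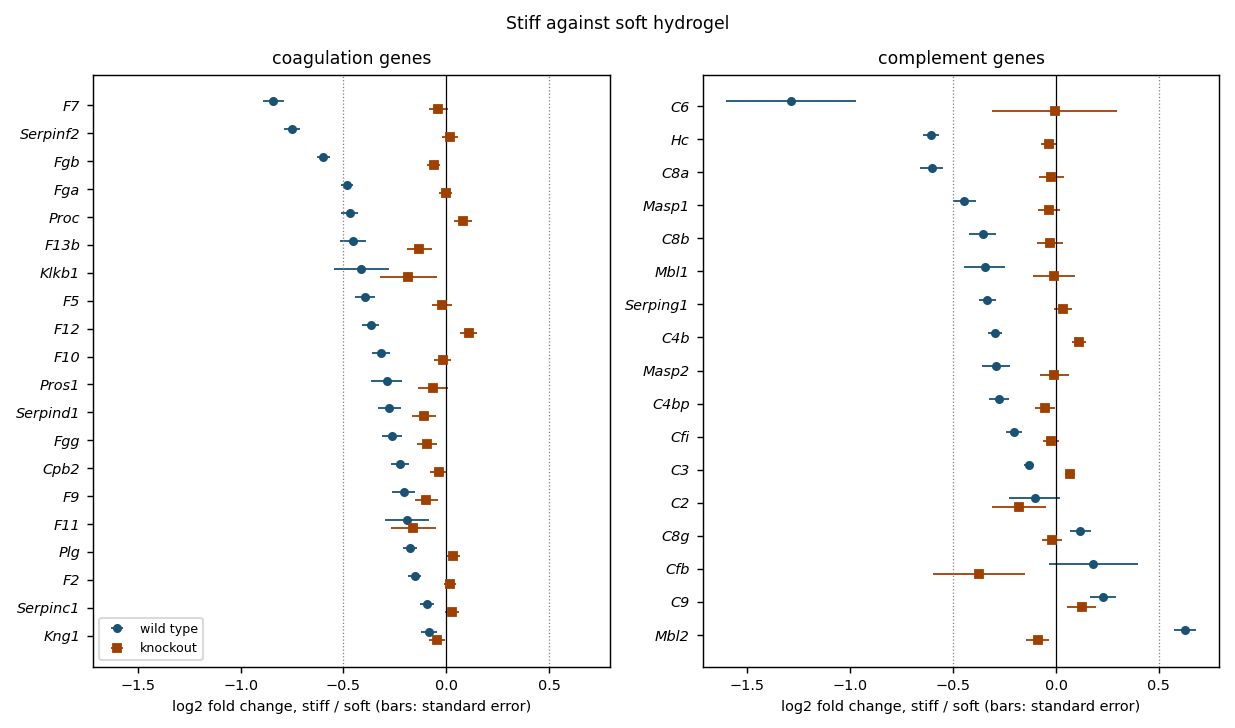
Log2 fold change of stiff against soft for the coagulation genes (left) and complement genes (right), wild type in blue circles and knockout in brown squares, with bars of 1 standard error and dotted lines at 0.5 either way. The wild-type points of all 20 coagulation genes lie below 0, while Mbl2 stands at 0.63 among the complement genes and the knockout points lie near 0.

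Among the vitamin K-dependent zymogens, F7 fell furthest. F7 encodes factor VII, which with tissue factor starts clotting after injury, and lies in the deposited table at chromosome 8, 13076034 to 13085809. It was at 124 and 121 CPM in wild-type soft, 69.9 and 66.9 in wild-type stiff, 136 and 135 in knockout soft, and 132 and 132 in knockout stiff. The wild-type stiff libraries were well below the other 6, which lay within a narrow range. Its log2 fold change on the stiff hydrogel in wild type was -0.84 ± 0.050 (SE, adjusted p = 1.69e-10 by edgeR). F10, the factor X gene that follows F7 on the same strand at chromosome 8, 13087308 to 13106676, did not pass the fold threshold at -0.32 ± 0.042 (SE).

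Prothrombin and the other vitamin K-dependent genes lay nearer to 0. F2, the prothrombin gene, was at -0.15, F9, factor IX, at -0.21, and Pros1, the protein S cofactor of activated protein C, at -0.29 log2 fold change in wild type. Proc encodes protein C, a protease that limits clotting by cutting the activated cofactors. It was at 334 and 355 CPM in wild-type soft, 255 and 243 in wild-type stiff, 343 and 345 in knockout soft, and 364 and 363 in knockout stiff. Its wild-type stiff libraries lay below the other 6, and its log2 fold change of -0.47 ± 0.043 (SE, adjusted p = 5.78e-08 by edgeR) stopped short of the threshold for a call. F5, the cofactor of activated factor X, lay at -0.40 ± 0.048 (SE).

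The fibrinogen chains are encoded side by side, Fgg at chromosome 3, 82915031 to 82922356, Fga at chromosome 3, 82933383 to 82940934 and Fgb on the other strand at chromosome 3, 82947448 to 82957170, as the deposited table gives them. Their promoter windows are shown because the chains of 1 protein are made from these neighbouring genes and because Fgb was among the genes called. The windows come from RefSeq on GRCm38.p6 and run from 250 bases before to 50 bases after the start. Capitals mark the motifs searched on both strands, which are GTTAAT (HNF1), AGTCCA (HNF4), TTGCNNAA (C/EBP) and GGAATG (TEAD).
Fga, chr3:83025903-83026202, plus strand: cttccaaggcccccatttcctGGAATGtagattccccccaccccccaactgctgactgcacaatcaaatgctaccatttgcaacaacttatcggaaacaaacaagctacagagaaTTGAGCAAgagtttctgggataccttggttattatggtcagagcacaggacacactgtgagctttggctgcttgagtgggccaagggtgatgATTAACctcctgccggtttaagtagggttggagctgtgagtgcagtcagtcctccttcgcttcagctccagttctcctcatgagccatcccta
Fgb, chr3:83049814-83050113, minus strand: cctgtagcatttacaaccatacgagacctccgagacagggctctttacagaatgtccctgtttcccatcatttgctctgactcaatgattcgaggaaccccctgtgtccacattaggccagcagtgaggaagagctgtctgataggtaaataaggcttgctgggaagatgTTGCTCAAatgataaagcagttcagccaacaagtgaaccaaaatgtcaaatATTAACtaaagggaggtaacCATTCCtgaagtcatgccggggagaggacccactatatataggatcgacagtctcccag
Fgg, chr3:83007474-83007773, plus strand: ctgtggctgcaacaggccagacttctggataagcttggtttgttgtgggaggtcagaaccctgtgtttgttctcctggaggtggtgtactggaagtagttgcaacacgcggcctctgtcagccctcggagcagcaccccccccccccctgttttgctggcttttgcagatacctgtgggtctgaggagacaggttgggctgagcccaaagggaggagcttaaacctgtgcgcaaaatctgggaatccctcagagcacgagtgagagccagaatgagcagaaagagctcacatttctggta

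The Fga and Fgb windows both held HNF1, C/EBP and TEAD letters, and the Fgg window held none of the motifs. Over all 32851 promoter windows of this length 7.10% held the HNF1 letters, 14.1% HNF4, 10.8% C/EBP and 14.7% TEAD. A window was found for 28 of the 37 genes, 17 of coagulation and 11 of complement. The HNF1 letters were in 4 of the 17 coagulation windows (F2, F13b, Fga and Fgb), C/EBP in 7 of 17, TEAD in 4 of 17 (F5, F9, Fga and Fgb) and HNF4 in 2 of 17 (F10 and Klkb1). A match describes the letters only and is not a binding site.

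Fgb encodes the fibrinogen beta chain. It was at 2195 and 2129.6 CPM in wild-type soft, 1427 and 1432 in wild-type stiff, 1613 and 1579 in knockout soft, and 1491 and 1569 in knockout stiff. Wild-type soft was the highest group and the other 6 libraries lay together between 1427 and 1613 CPM. The log2 fold change in wild type was -0.60 ± 0.032 (SE, adjusted p = 4.17e-11 by edgeR). Fga, the alpha chain, was at 1651 and 1663 CPM in wild-type soft, 1177 and 1195 in wild-type stiff, 1056 and 1052 in knockout soft, and 1044 and 1058 in knockout stiff. Both wild-type groups lay above the knockout libraries, and the stiff libraries below the soft ones, with a log2 fold change of -0.48 ± 0.030 (SE, adjusted p = 3.48e-10 by edgeR), short of the fold threshold. Fgg, the gamma chain, was at 804 and 724 CPM in wild-type soft, 634 and 638 in wild-type stiff, 522 and 499 in knockout soft, and 461 and 497 in knockout stiff. It showed the smallest wild-type difference of the chains, at -0.27 ± 0.048 (SE, adjusted p = 0.000197 by edgeR). F13b, the carrier subunit of the fibrin cross-linking factor XIII, lay at -0.45 ± 0.062 (SE).

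In fibrinolysis, Serpinf2 fell. It encodes alpha2-antiplasmin, the main inhibitor of plasmin, and was at 565 and 596 CPM in wild-type soft, 348 and 341 in wild-type stiff, 496 and 481 in knockout soft, and 495 and 492 in knockout stiff. Its wild-type stiff libraries were the lowest and its wild-type soft libraries the highest, with no overlap. The log2 fold change in wild type was -0.75 ± 0.039 (SE, adjusted p = 2.59e-11 by edgeR). Plg, plasminogen itself, lay at -0.18 ± 0.035 (SE) and Cpb2, the carboxypeptidase that protects fibrin from plasmin, at -0.23 ± 0.042 (SE). Of the 64-base windows of the Plg transcript 13.3% also occur in that of Slc22a3 on the other strand, which had 0.0241% as many counts.

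The contact system and the thrombin inhibitors held no called gene in this comparison. F12, whose product starts the contact pathway, was at -0.37, Klkb1 at -0.41, F11, factor XI, at -0.19 and Kng1 at -0.085 log2 fold change. F11 and Kng1 were the 2 coagulation genes that did not reach an adjusted p under 0.05, at 0.166 and 0.089. Serpinc1, antithrombin, lay at -0.095 ± 0.034 (SE) and Serpind1, heparin cofactor II, at -0.28 ± 0.056 (SE). Shared sequence makes some of these counts uncertain. Of the 64-base windows 58.7% were shared with Zbtb37 for Serpinc1, 42.5% with Gm45753 for Klkb1 and 13.6% with Kng2 for Kng1, although Zbtb37 and Gm45753 had only 0.588% and 0.0939% as many counts as their partners.

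Of the 17 complement genes 3 fell on the stiff hydrogel in wild type (C6, Hc and C8a) and 1 rose (Mbl2), again beside 9.26% and 10.0% of all genes. Their median log2 fold change was -0.292, with 13 below 0 and 4 above. Without a minimum fold change 12 were lower and 2 higher at an adjusted p under 0.05, beside 20.0% and 21.1% of all genes. The 2 groups did not overlap for 15 of the 17, the exceptions being C2 and Cfb, against 68.9% of all genes.

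The complement genes that fell all belong to the terminal pathway, which builds the membrane attack complex. Of its 6 genes 3 were called lower, beside 9.26% of all genes, while C8g and C9 of the same pathway lay above 0. Hc encodes C5, whose cleavage starts that assembly, at chromosome 2, 34873343 to 34951450 in the deposited table. It was at 369 and 364 CPM in wild-type soft, 239.8 and 242 in wild-type stiff, 316 and 315 in knockout soft, and 305 and 312 in knockout stiff. The wild-type stiff libraries were lowest, wild-type soft highest and the knockout libraries between them. Its log2 fold change in wild type was -0.61 ± 0.039 (SE, adjusted p = 4.98e-10 by edgeR). C8a, the alpha chain of C8, was at 77.1 and 74.8 CPM in wild-type soft, 50.0 and 49.9 in wild-type stiff, 50.3 and 48.3 in knockout soft, and 49.6 and 47.6 in knockout stiff. Here only the wild-type soft libraries stood apart, and the log2 fold change was -0.61 ± 0.058 (SE, adjusted p = 1.12e-07 by edgeR). C6 was at 2.50 and 2.72 CPM in wild-type soft, 1.06 and 1.07 in wild-type stiff, 1.83 and 1.59 in knockout soft, and 1.31 and 2.12 in knockout stiff, the lowest level of the set. Its wild-type groups did not overlap, and the log2 fold change was -1.29 ± 0.32 (SE, adjusted p = 0.00314 by edgeR).

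C8b and C8g, which encode the other chains of C8, and C9, which forms the pore, were not called. C8b lies next to C8a on the other strand (chromosome 4, 104623514 to 104661745 and chromosome 4, 104672876 to 104733595) and was at -0.36 ± 0.065 (SE). C8g lay above 0 at 0.12 ± 0.049 (SE) with an adjusted p of 0.0642, and C9 lay at 0.23 ± 0.063 (SE) with an adjusted p of 0.00716 by edgeR. The C8g count carries a limit, since Fbxw5 overlaps it on the other strand with 45.5% as many counts and the strand rule of the counting was not given. The promoter windows of Hc and C8a, on GRCm38.p6, are shown because these genes fell and each window held the HNF1 letters (capitals, either strand).
Hc, chr2:35061363-35061662, minus strand: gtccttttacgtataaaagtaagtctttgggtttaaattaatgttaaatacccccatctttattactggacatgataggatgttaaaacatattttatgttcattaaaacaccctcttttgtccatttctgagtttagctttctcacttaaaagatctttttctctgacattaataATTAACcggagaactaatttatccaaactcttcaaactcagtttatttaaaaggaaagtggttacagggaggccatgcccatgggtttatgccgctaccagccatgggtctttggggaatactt
C8a, chr4:104876349-104876648, minus strand: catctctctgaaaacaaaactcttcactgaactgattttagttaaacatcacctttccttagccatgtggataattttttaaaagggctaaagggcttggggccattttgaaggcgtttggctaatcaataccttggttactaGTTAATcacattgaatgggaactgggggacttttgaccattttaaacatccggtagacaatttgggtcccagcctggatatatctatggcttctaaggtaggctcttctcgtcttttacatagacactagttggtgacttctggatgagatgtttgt

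HNF1 letters were in 4 of the 11 complement windows (C4bp, C8a, C8b and Hc), C/EBP in 2 (C3 and C9), TEAD in 2 (C4bp and C9) and HNF4 in 1 (Mbl1). C4bp and C8b were not called between stiff and soft in wild type. The windows of C6 and Serpinf2, which also fell, held none of the motifs.

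The lectin pathway held the gene that rose. Mbl2 encodes mannose-binding lectin C, which recognizes sugars on microbes, at chromosome 19, 30210342 to 30217087 in the deposited table. It was at 292 and 270.1 CPM in wild-type soft, 439 and 429 in wild-type stiff, 187 and 185 in knockout soft, and 163 and 186 in knockout stiff. All 4 groups were apart except the knockout groups, and wild-type stiff was the highest. The log2 fold change in wild type was 0.63 ± 0.054 (SE, adjusted p = 2.88e-08 by edgeR). Mbl1, the related mannose-binding lectin A, was at 25.2 and 24.2 CPM in wild-type soft, 20.9 and 17.9 in wild-type stiff, 15.7 and 16.9 in knockout soft, and 15.8 and 16.6 in knockout stiff. Its wild-type stiff libraries lay below wild-type soft, at -0.35 ± 0.099 (SE, adjusted p = 0.00924 by edgeR), a value of opposite sign to that of Mbl2 that missed the fold threshold. Masp1 and Masp2, the proteases that act with these lectins, lay at -0.45 ± 0.054 and -0.29 ± 0.069 (SE). Masp2 shares 56.5% of its 64-base windows with Tardbp on the other strand, which had 193% as many counts, and Masp1 is overlapped by Rtp4 with 41.0% as many, so both counts are uncertain.

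The promoter windows of F7 and Mbl2, the coagulation gene that fell furthest and the gene that rose, are shown for comparison with those above, and neither held any of the 4 motifs.
F7, chr8:13025784-13026083, plus strand: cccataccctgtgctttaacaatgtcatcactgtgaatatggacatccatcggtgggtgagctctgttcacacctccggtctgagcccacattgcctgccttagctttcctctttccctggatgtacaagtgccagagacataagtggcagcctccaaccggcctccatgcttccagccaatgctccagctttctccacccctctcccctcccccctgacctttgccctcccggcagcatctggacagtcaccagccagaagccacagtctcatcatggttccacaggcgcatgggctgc
Mbl2, chr19:30232678-30232977, plus strand: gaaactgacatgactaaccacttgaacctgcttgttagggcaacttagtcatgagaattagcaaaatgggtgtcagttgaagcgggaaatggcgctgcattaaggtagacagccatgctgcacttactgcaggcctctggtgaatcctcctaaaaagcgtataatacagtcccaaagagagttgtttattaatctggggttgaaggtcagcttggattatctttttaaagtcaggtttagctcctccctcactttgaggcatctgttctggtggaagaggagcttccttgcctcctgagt

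The central components and the inhibitors of complement held no called gene. C3 was at -0.13 ± 0.024 and C4b, the classical and lectin convertase component, at -0.30 ± 0.034 log2 fold change (SE) in wild type. C2, the protease of that convertase, lay at -0.10 ± 0.12 and Cfb, its alternative pathway counterpart, at 0.18 ± 0.22 (SE), neither past an adjusted p of 0.05. The inhibitors Serping1 (C1 inhibitor), C4bp (C4b-binding protein) and Cfi (factor I, which cuts C3b and C4b) were at -0.33, -0.28 and -0.20. C4b shared 27.9% of its 64-base windows with C4a, and C2 and Cfb shared 56.7% and 81.3% with the gene model Gm20547, which had 0 counts.

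The second comparison asked the same of the knockout hepatocytes. By edgeR 0 of the 20 coagulation and 0 of the 17 complement genes were called between stiff and soft, beside 0.0210% of all genes tested. DESeq2 also called 0 of each. At an unadjusted p under 0.05, which 7.54% of all genes passed, there were 2 coagulation genes (F12 at 0.11 and F13b at -0.13) and 2 complement genes (C4b at 0.11 and C3 at 0.067). The median log2 fold change was -0.0374 over the coagulation and -0.0224 over the complement genes, and 0.00764 over all genes. F7 lay at -0.039 ± 0.048, Serpinf2 at 0.016 ± 0.039, Hc at -0.032 ± 0.039 and Mbl2 at -0.089 ± 0.055 (SE). The groups did not overlap for 11 of the 20 coagulation and 4 of the 17 complement genes, against 38.1% of all genes.

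The precision of these estimates bounds what could have been missed, within the spread between these libraries only, which may be technical. The 95% confidence interval lay inside 0.5 either way for 20 of 20 coagulation genes, with outermost bounds of -0.476 (Klkb1) and 0.198 (F12). It did so for 15 of 17 complement genes. The exceptions were Cfb and C6, whose intervals reached down to -0.843 and up to 0.637.

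The difference between the genotypes was tested as the interaction of genotype and stiffness, that is the stiff against soft log2 fold change of the knockout minus that of the wild type. Of the 20 coagulation genes 4 had a positive difference past the threshold and 0 a negative one, beside 16.8% of all genes (8.64% positive and 8.21% negative). They were F7 at 0.80 ± 0.069 (SE, adjusted p = 6.17e-08 by edgeR), Serpinf2 at 0.77 ± 0.055 (SE, adjusted p = 5.56e-09 by edgeR), Proc at 0.55 ± 0.060 (SE, adjusted p = 1.18e-06 by edgeR) and Fgb at 0.54 ± 0.045 (SE, adjusted p = 4.9e-08 by edgeR). All 20 differences were above 0, with a median of 0.227 beside 0.0155 over all genes, and 12 passed the adjusted p with no minimum fold change, beside 15.3% of all genes positive and 14.1% negative. Because this difference and the wild-type comparison use the same wild-type libraries, the 2 sets of values are not independent. The Fgb difference was 0.499 without wild-type soft replicate 1 and 0.491 without knockout stiff replicate 2, and that of Proc was 0.494 without wild-type soft replicate 2, each just under the fold threshold.

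Of the 17 complement genes 3 had a positive difference (C6, C8a and Hc) and 1 a negative one (Mbl2), beside 8.64% and 8.21% of all genes, with a median over the list of 0.285. The values were 0.58 ± 0.083 (SE, adjusted p = 2.81e-05 by edgeR) for C8a, 0.57 ± 0.055 (SE, adjusted p = 2.3e-07 by edgeR) for Hc and -0.72 ± 0.077 (SE, adjusted p = 1.08e-06 by edgeR) for Mbl2. C6 was at 1.28 ± 0.44 (SE, adjusted p = 0.0369 by edgeR), and this call was the least firm. DESeq2 gave it an adjusted p of 0.157, and edgeR gave 0.0608 to 0.211 without any 1 of the wild-type libraries, of the knockout soft libraries or knockout stiff replicate 2, with log2 differences of 0.89 to 1.39. Without a minimum fold change 11 of the 17 were positive and 1 negative, beside 15.3% and 14.1% of all genes.

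**Figure D3:**
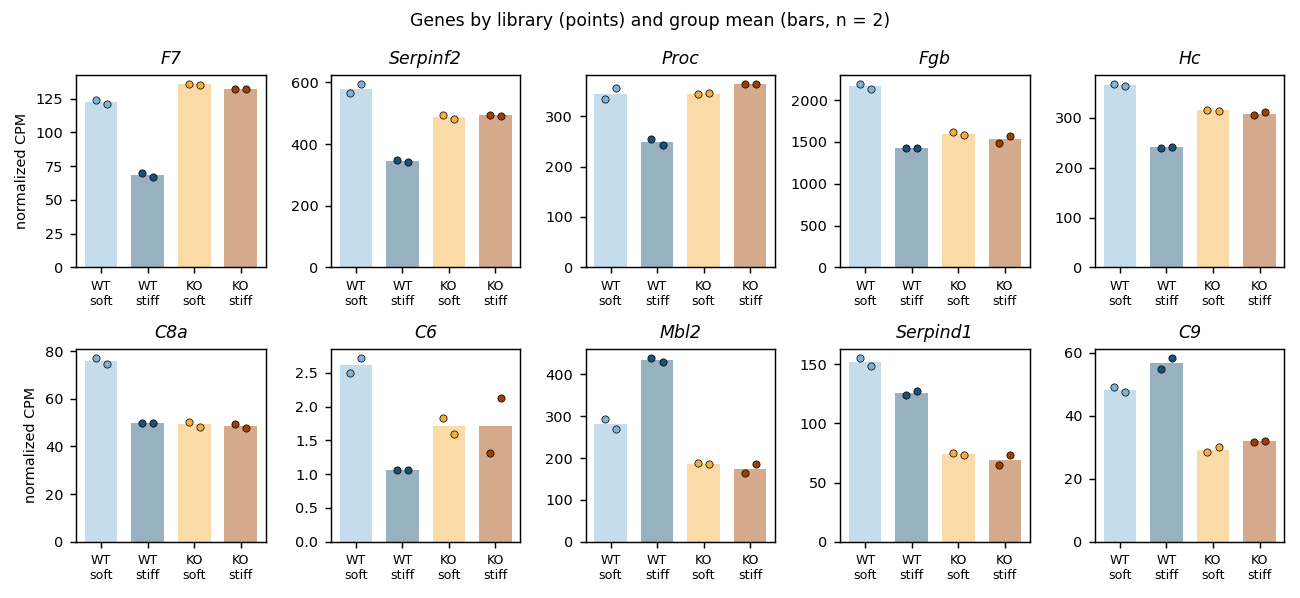
Normalized CPM of 10 genes called in at least 1 comparison, with a point per library and a bar for the mean of the 2 libraries of each group (WT, wild type, and KO, knockout). In F7, Serpinf2, Proc and Hc the wild-type stiff bar is the lowest, in Mbl2 it is the highest, and in Serpind1 and C9 both knockout bars lie below both wild-type bars.

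The third comparison set knockout against wild-type hepatocytes on the soft hydrogel. Of the 20 coagulation genes 4 were lower in the knockout and 0 higher, beside 6.67% of all genes (4.65% lower and 2.02% higher). They were Serpind1, Fga, Fgg and Kng1. Of the 17 complement genes 4 were lower (C9, C8a, Mbl1 and Mbl2) and 0 higher, beside the same shares of all genes. The median log2 fold change was -0.249 over the coagulation and -0.354 over the complement genes and -0.000314 over all genes. With no minimum fold change 12 coagulation genes were lower and 1 higher, and 12 complement genes lower and 0 higher, against 10.9% and 7.48% of all genes. The groups did not overlap for 15 genes in each list, against 56.2% of all genes.

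Serpind1 had the lowest log2 fold change of the coagulation genes here. Its product, heparin cofactor II, inhibits thrombin. The gene was at 155 and 149 CPM in wild-type soft, 124 and 128 in wild-type stiff, 74.9 and 73.8 in knockout soft, and 64.8 and 73.3 in knockout stiff. Both knockout groups lay at about the same level, below every wild-type library, with a log2 fold change of -1.03 ± 0.057 (SE, adjusted p = 2.87e-10 by edgeR) on the soft hydrogel. Pi4ka overlaps the gene span on the other strand with 83.9% as many counts, and no 64-base window of the transcript was shared. Of the fibrinogen chains, Fga was at -0.65 ± 0.030 (SE, adjusted p = 2.72e-11 by edgeR) and Fgg at -0.58 ± 0.048 (SE, adjusted p = 5.16e-08 by edgeR), while Fgb stopped short of the threshold at -0.44 ± 0.032 (SE). Kng1 was at 1686 and 1557 CPM in wild-type soft, 1536 and 1522 in wild-type stiff, 1154 and 1127 in knockout soft, and 1072 and 1136 in knockout stiff. The wild-type libraries were above all knockout libraries. Its log2 fold change was -0.51 ± 0.039 (SE, adjusted p = 1.74e-08 by edgeR), close to the threshold. The call was lost in 5 of 16 alternatives, at -0.494 with upper-quartile scaling, -0.453 with library size alone, -0.498 with no filter on low counts, -0.45 without wild-type soft replicate 1 and -0.494 without knockout soft replicate 2.

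C9 had the lowest log2 fold change of the complement genes on the soft hydrogel. It was at 49.0 and 47.4 CPM in wild-type soft, 54.9 and 58.3 in wild-type stiff, 28.4 and 30.1 in knockout soft, and 31.8 and 31.9 in knockout stiff. All knockout libraries were below all wild-type libraries, and the log2 fold change was -0.72 ± 0.066 (SE, adjusted p = 2.09e-07 by edgeR). C8a was at -0.62 ± 0.057 (SE, adjusted p = 2.22e-07 by edgeR), and its knockout soft libraries lay at 50.3 and 48.3 CPM beside 50.0 and 49.9 for wild-type stiff. Mbl1 was at -0.60 ± 0.10 (SE, adjusted p = 0.000242 by edgeR) and Mbl2 at -0.60 ± 0.055 (SE, adjusted p = 2.2e-07 by edgeR). The genes that were not called ranged from C6 at -0.60 ± 0.29 (SE) to Cfb at 0.0048 ± 0.22 (SE).

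The fourth comparison set the genotypes side by side on the stiff hydrogel. Here the coagulation genes went both ways, with 3 higher in the knockout (F7, Proc and Serpinf2) and 1 lower (Serpind1) of 20, beside 28.7% of all genes (13.7% higher and 15.0% lower). F7 was at 0.95 ± 0.050 (SE, adjusted p = 1.57e-11 by edgeR), Proc at 0.55 ± 0.043 (SE, adjusted p = 3.97e-09 by edgeR) and Serpinf2 at 0.52 ± 0.039 (SE, adjusted p = 2.53e-09 by edgeR). The last value was 0.495 without wild-type stiff replicate 2 and so lost its call. Serpind1 was at -0.87 ± 0.058 (SE, adjusted p = 5.4e-10 by edgeR). With no minimum fold change 9 were higher and 6 lower, against 25.4% and 25.7% of all genes. The median log2 fold change was -0.00986, which turned to 0.00783 with upper-quartile scaling and 0.0473 with library size alone, so its sign depended on the scaling. The groups did not overlap for 17 of 20 coagulation and 15 of 17 complement genes, against 74.5% of all genes.

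Of the 17 complement genes 4 were lower in the knockout on the stiff hydrogel and 0 higher, beside 15.0% and 13.7% of all genes. Mbl2 was at -1.31 ± 0.055 (SE, adjusted p = 5.67e-13 by edgeR), the largest difference of the set, and C9 at -0.83 ± 0.066 (SE, adjusted p = 5.37e-09 by edgeR). C2 was at 22.1 and 17.8 CPM in wild-type soft, 20.3 and 17.1 in wild-type stiff, 16.0 and 13.3 in knockout soft, and 12.4 and 13.6 in knockout stiff. The knockout stiff libraries were below both wild-type groups, and the log2 fold change was -0.53 ± 0.13 (SE, adjusted p = 0.00247 by edgeR). It was -0.471 with library size alone, -0.413 without wild-type stiff replicate 1 and -0.466 without knockout stiff replicate 1, each of which lost the call. Zbtb12 overlaps the C2 span on the other strand with 24.4% as many counts, so the C2 count is uncertain. Cfb was at 10.9 and 6.50 CPM in wild-type soft, 10.9 and 9.15 in wild-type stiff, 9.72 and 8.01 in knockout soft, and 5.39 and 8.40 in knockout stiff, with a log2 fold change of -0.55 ± 0.22 (SE, adjusted p = 0.0489 by edgeR). This call was lost in 10 of 16 alternatives. DESeq2 gave an adjusted p of 0.0823, and leaving out 1 library gave an edgeR adjusted p of 0.0502 to 0.391 for either wild-type stiff, either knockout soft or knockout stiff replicate 1, with log2 fold changes of -0.68 to -0.264. With no minimum fold change 3 complement genes were higher and 8 lower, beside 25.4% and 25.7% of all genes, and the median log2 fold change was -0.0628.

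**Figure D4:**
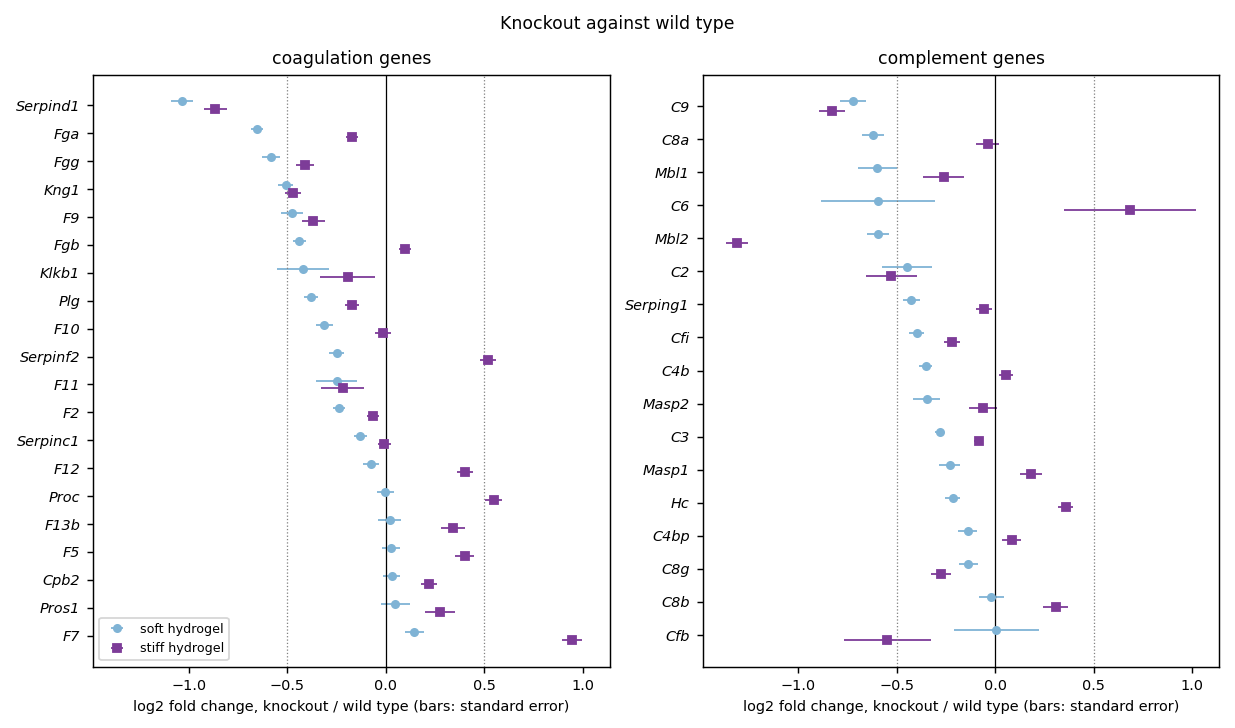
Log2 fold change of knockout against wild type for the coagulation genes (left) and complement genes (right), on the soft hydrogel in light blue circles and on the stiff hydrogel in purple squares, with bars of 1 standard error and dotted lines at 0.5 either way. Serpind1 and C9 lie left of the lower line on both hydrogels, F7 moves from 0.15 on soft to 0.95 on stiff, and Mbl2 from -0.60 to -1.31.

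Reading both genotype comparisons together at an adjusted p under 0.05 with no minimum fold change, the genes fell into a few patterns, given beside the share of all 14279 genes with the same pattern. Lower in the knockout on both hydrogels were 6 coagulation genes (F9, Fga, Fgg, Serpind1, Plg and Kng1) and 6 complement genes (C3, C9, C2, Cfi, Mbl1 and Mbl2), against 8.60% of all genes. Higher on the stiff hydrogel only by this test were 6 coagulation genes (F5, F12, F13b, Proc, Pros1 and Cpb2) and 1 complement gene (C8b), against 19.0% of all genes. Lower on soft but past no threshold on stiff were F2, F10, Serpinc1 and Klkb1, and C4b, C8a, Masp2 and Serping1, a pattern of 1.69% of all genes. Lower on soft and higher on stiff were Fgb, Serpinf2, Hc and Masp1, against 0.609%. F7 was the gene higher on both, as were 5.85% of all genes. C8g and Cfb were lower on stiff and not past the threshold on soft, against 16.8%. F11, C6 and C4bp passed the threshold on neither, as did 45.8% of all genes. Passing on 1 hydrogel and not on the other is not a difference between hydrogels in itself, and the test of that difference is the interaction above.

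The receptors, initiators and other regulators of these systems were looked at in 2 further lists. Of 32 coagulation genes of this kind 28 could be tested, and in wild type 8 rose and 4 fell on the stiff hydrogel, beside 10.0% and 9.26% of all genes, with 0 called in the knockout, beside 0.0210%. The highest value was that of F3, which encodes tissue factor, the receptor of factor VII. It was at 72.5 and 71.1 CPM in wild-type soft, 337 and 339.9 in wild-type stiff, 21.2 and 21.2 in knockout soft, and 21.0 and 20.7 in knockout stiff. The wild-type stiff libraries were the highest, the knockout libraries were the lowest, and wild-type soft lay between them. The log2 fold change in wild type was 2.24 ± 0.048 (SE, adjusted p = 1.81e-16 by edgeR). Plaur, which encodes the urokinase receptor, was at 1.36, and the protease-activated receptor genes F2rl1 and F2r at 1.04 and 0.92. Plau, urokinase itself, at no more than 3.38 CPM in any library, was at 0.82 ± 0.31 (SE, adjusted p = 0.0446 by edgeR). The largest falls were those of Serpine2 (protease nexin-1, at no more than 2.77 CPM in any library) at -1.73, the fibrinogen-like gene Fgl1 at -0.88, and Serpina10 and Proz, which encode the protein Z-dependent inhibitor and protein Z, at -0.83 and -0.66. Against wild type on the soft hydrogel F3 was at -1.76 ± 0.056 (SE, adjusted p = 1.84e-13 by edgeR) in the knockout. On the stiff hydrogel it was at -4.02 ± 0.055 (SE, adjusted p = 1.77e-19 by edgeR). In that comparison 6 of the 28 genes were higher and 12 lower, beside 13.7% and 15.0% of all genes. On soft 3 were higher and 6 lower, beside 2.02% and 4.65%, and in the interaction 4 were positive and 5 negative, beside 8.64% and 8.21%.

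Of 32 further complement genes 26 could be tested. In wild type 1 rose and 6 fell on the stiff hydrogel, again beside 10.0% and 9.26% of all genes. In the knockout 0 were called, beside 0.0210% of all genes. Clu, which encodes clusterin, an inhibitor of the terminal complex, was at 5622 and 6038 CPM in wild-type soft, 9324 and 9133 in wild-type stiff, 4503 and 4539.9 in knockout soft, and 4897 and 4627 in knockout stiff. The wild-type stiff libraries were the highest, at a log2 fold change of 0.66 ± 0.032 (SE, adjusted p = 8.86e-12 by edgeR). Cpn2, the carrier subunit of carboxypeptidase N, which inactivates complement anaphylatoxins, was at 80.1 and 87.9 CPM in wild-type soft, 29.5 and 29.7 in wild-type stiff, 47.8 and 50.3 in knockout soft, and 49.5 and 50.9 in knockout stiff. It fell by 1.50 on the log2 scale, with an SE of 0.065 and an adjusted p of 2.44e-12 by edgeR. Cd55, decay-accelerating factor, which shares 10.2% of its 64-base windows with Cd55b, was at -1.32 and C1rl, a relative of the C1r protease, at -0.65. Vsig4, a complement receptor of macrophages, was at -1.21 and C1qc, a chain of C1q, at -0.66. Both are made mainly by macrophages, and of the 10 Kupffer cell and macrophage markers, of which Vsig4 is 1, 5 fell and 0 rose in this comparison, beside the same shares. The part of these cells was not tested. On the stiff hydrogel 11 of the 26 were higher and 3 lower in the knockout than in wild type, beside 13.7% and 15.0% of all genes. On soft 2 were higher and 1 lower, beside 2.02% and 4.65%, and in the interaction 5 were positive and 1 negative, beside 8.64% and 8.21%. Of the 10 Kupffer cell and macrophage markers 8 were higher and 0 lower in the knockout on stiff. Of the 8 endothelial markers tested 6 were higher and 0 lower there, and the part of these cells was not tested.

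**Figure D5:**
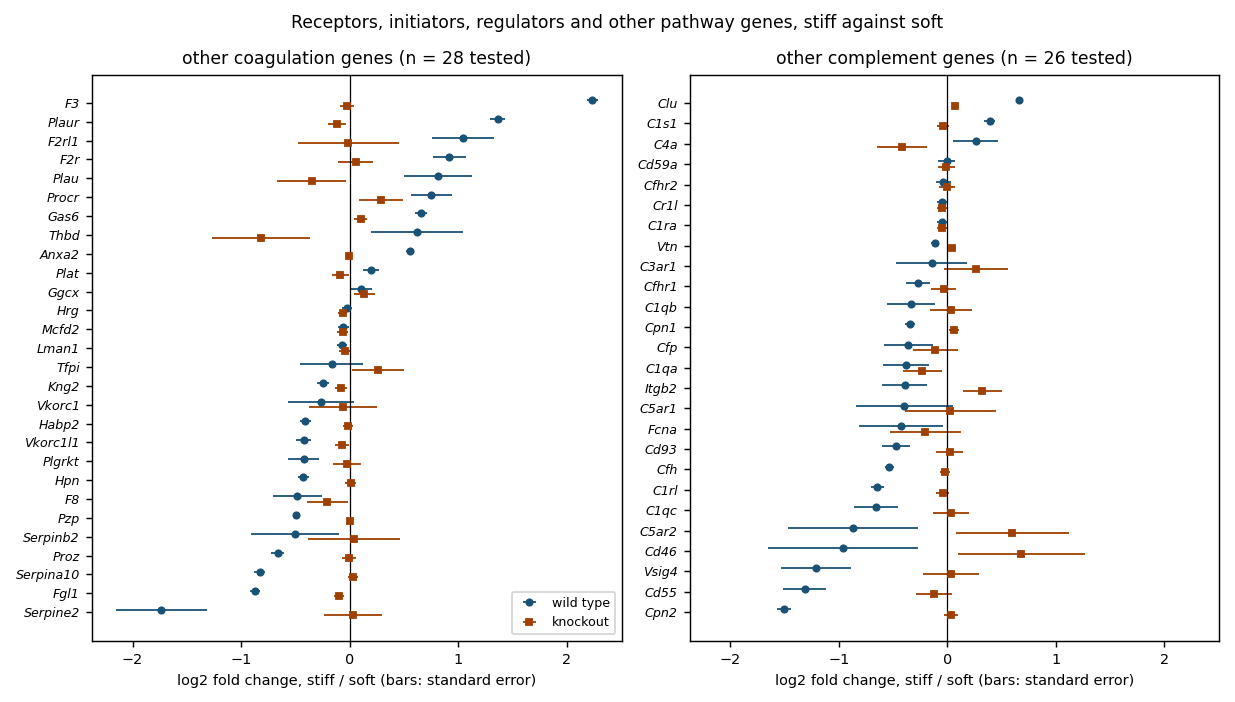
Log2 fold change of stiff against soft for the 28 further coagulation genes tested (left) and the 26 further complement genes tested (right), wild type in blue circles and knockout in brown squares, with bars of 1 standard error. F3 stands furthest to the right in wild type, Serpine2 and Cpn2 furthest to the left, and most knockout points lie near 0, with wide bars for genes of low counts.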

How the data were processed

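Raw counts per gene were deposited for 8 libraries in 1 table of 56748 genes, with gene lengths and positions. Read pairs were aligned by the authors in HISAT2 2.0.5 and assigned to genes with featureCounts, and per the labels the processing notes name mm9. The start of all 37 genes in the table differed from their start on GRCm38, so the build of the table was not settled and its positions are printed as deposited. The rules for strand and for reads that match several genes are not given in the sources used here. Values therefore carry those rules, and genes that overlap one of the 37 with over 20% as many counts, or share over 10% of its sequence windows, are named beside its values. A count of 0 allows up to 3 counts, and such limits and all intervals cover counting error and library spread only.

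Counts were filtered with filterByExpr by group (14279 genes kept), scaled by TMM and fitted for all 8 libraries together in edgeR 4.0.16 (R 4.3.3) with glmQLFit, with 4 residual degrees of freedom before moderation across genes. The 5 contrasts were stiff against soft in each genotype, their difference, and the genotypes compared on each hydrogel. They were tested with glmQLFTest, and p-values were adjusted over all genes by the Benjamini-Hochberg method. Genes were called at an adjusted p below 0.05 where the log2 fold change exceeded 0.5 in size. The fit was tested on simulated data. DESeq2 1.42.0, other scalings and filters, other fold thresholds, a replicate block and leaving out each library were the alternatives. The 37 genes, the further pathway genes and the cell markers were chosen with earlier results of these data known. All 37 genes are accounted for, called genes are named with their values, and the others are given by count, range and selected values. In the further lists at most the 5 largest rises and 5 largest falls in wild type were named, and 1 further coagulation gene is not reported here. Library totals of 18324083 to 26442310 counts and 2 libraries per group set the precision. Shared sequence was counted as 64-base windows between GENCODE vM21 transcripts. Promoter windows were taken from RefSeq, and figures were drawn with matplotlib 3.10.9.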

Additional observations from a re-analysis of the deposited data

Results flagged for a closer look

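The stiff against soft log2 fold change differed between the genotypes, by the interaction test in edgeR, for 8 of the 37 genes. That is 21.6% of them, beside 16.8% of all genes tested. The difference is the knockout value minus the wild-type value. It was positive for F7 (0.80), Serpinf2 (0.77), Proc (0.55) and Fgb (0.54) among the coagulation genes and for C6 (1.28), C8a (0.58) and Hc (0.57) among the complement genes. It was negative for Mbl2 (-0.72). With the fold threshold kept at 0.5, the calls of C6, Fgb and Proc were lost under some of the alternatives. With 2 libraries in each group, no library could be tested as standing apart from its group.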

How the results depend on the processing

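Of the 10 counts of called genes, none turned direction. Counts moved by over 1.5 times mainly with the fold threshold. With no minimum fold change, the called coagulation genes were 18 in wild type stiff against soft, 12 in the interaction, 13 in knockout against wild type on soft and 15 on stiff, and the complement genes were 14, 12, 12 and 11. With an absolute log2 fold change over 1 they were 0, 0, 1 and 0 for coagulation, and 1, 1, 0 and 1 for complement. With library size alone as scaling, 2 complement genes were called in knockout against wild type on stiff. Leaving out 1 library gave 3 to 4 (wild type), 0 to 0 (knockout), 3 to 4 (interaction), 3 to 5 (soft) and 3 to 5 (stiff) coagulation genes, and 4 to 5, 0 to 0, 3 to 4, 4 to 5 and 2 to 4 complement genes. The lowest of these, 2, was without wild-type stiff replicate 1. The cause was not tested, and a library left alone in its group is assumed to vary like the others. The deviations of same-numbered libraries from their group means correlated at -0.101 to 0.0424 between groups. If the 2 libraries of a group are technical, such values could be near 0 with or without shared mice, so pairing was not settled. With the replicate block 3, 0, 4, 4 and 4 coagulation and 4, 0, 4, 4 and 3 complement genes were called, and Cfb on stiff lost its call (adjusted p = 0.0631 by edgeR). With the fold threshold kept at 0.5, the calls lost under an alternative were those of C2, C6, Cfb, Fgb, Kng1, Proc and Serpinf2 named in the report. With library size alone the median of all genes shifted to 0.054 (soft) and 0.0683 (stiff) for knockout against wild type. Counts of 21 to 65 limit C6, and 2 libraries per group limit every gene.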
